A study of Macaca mulatta with 12 samples.

Results

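A set of 10 genes, given as one of lipid droplet proteins and their partners, were followed through the liver biopsies of male rhesus macaques that drank ethanol. They were the perilipins PLIN2, PLIN3, PLIN4 and PLIN5, the fusion proteins CIDEB and CIDEC, the lipase regulator G0S2, the lipase PNPLA3 and the acyltransferases DGAT1 and DGAT2. Each symbol matched 1 Ensembl macaque identifier of the transcript table, so that 10 of 23993 identifiers were taken, with 16 of its 40611 transcripts. All 10 passed the filter on low counts, as did 18373 identifiers in all.

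RNA came from 12 biopsies of 6 animals aged about 4.6 years, sampled before ethanol and again at the end of an induction of 90 days. Daily ethanol was raised in steps of 30 days, at 0.5, 1 and 1.5 g/kg. The animals were classed only afterwards, over 12 months of free access, by mean daily intake: 4.0 g/kg in very heavy drinkers (VHD) and 1.5 g/kg in light drinkers (LD). The 4 groups, of 3 libraries each, were therefore VHD post-induction, VHD baseline, LD post-induction and LD baseline. There was no group kept without ethanol over the same time, so ethanol and the time between biopsies cannot be told apart.

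A lipid droplet is a core of triglyceride and sterol ester under a single layer of phospholipid, and hepatocytes use it to store fatty acids that they do not burn or export. Perilipins coat this surface and limit the access of lipases. PLIN2 is the main coat protein of the hepatocyte droplet, is degraded when it is not bound to lipid, and is known to accumulate in fatty liver. The DGAT enzymes make the last step of triglyceride synthesis, CIDE proteins help droplets grow by fusion and lipid transfer, and G0S2 inhibits the lipase ATGL.

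Libraries held 5970033 to 25060718 counts. The tissue label held against its markers: 8 of 9 hepatocyte markers were in the table, none was at 0 in any library, and albumin alone took 75121 to 165558 CPM (counts scaled to a common library total). Component 1 of the tested genes (31.4% of the variance) had 5 libraries, 4 of them post-induction, below 0 and the other 7 above 0. The cut at 0 is not a gap, since VHD post-induction 1 (-7.22) and VHD baseline 3 (5.61) lay close to it. On component 2 (20.6%) the libraries VHD post-induction 2 and VHD baseline 3 stood alone. These libraries carry the numbers of different animals, yet their deviations from the group means correlated at 0.33 across genes, and those of VHD baseline 2 and VHD post-induction 2, labelled as 1 animal, at -0.35. The 2 libraries of the other animals correlated at 0.41 in VHD1, 0.10 in VHD3, 0.07 in LD1, -0.02 in LD2 and 0.35 in LD3. Libraries of 1 animal were thus not alike in general. The cause of the likeness between VHD post-induction 2 and VHD baseline 3 was not tested. Results are given with and without this pair where it matters. The transcript table gives no transcript lengths, so levels of different genes are not compared.

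PLIN2 fell after the induction and was the only one of the 10 genes that passed the test. VHD post-induction livers 1, 2 and 3 had 21.4, 15.2 and 26.7 CPM, against 143, 138 and 60.0 CPM in the same animals at VHD baseline. LD post-induction livers had 35.0, 15.3 and 18.02 CPM, against 63.3, 66.5 and 162 CPM at LD baseline. All 6 post-induction libraries lay below all 6 baseline libraries, which was true of 0.849% of the genes tested. Mean levels were 21.1 ± 5.73 CPM in VHD post-induction and 114 ± 46.6 CPM in VHD baseline livers, and 22.8 ± 10.7 CPM in LD post-induction and 97.3 ± 56.1 CPM in LD baseline livers (SD, n = 3 each).

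**Figure D1:**
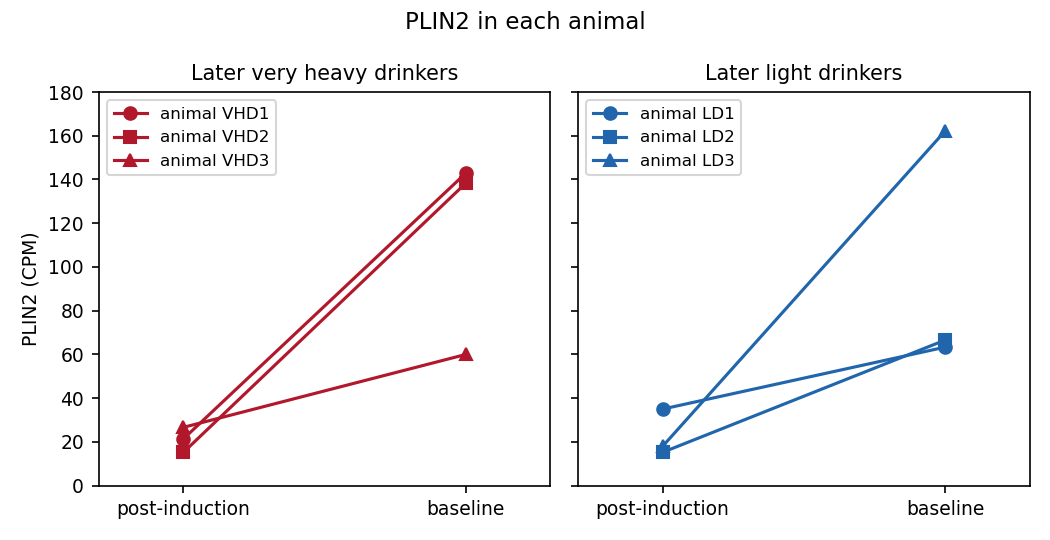
PLIN2 level (CPM, linear axis from 0) in each of the 6 animals, post-induction on the left of each panel and baseline on the right; a line joins the libraries of 1 animal. The post-induction values lie between 15.2 and 35.0 CPM and the baseline values between 60.0 and 162 CPM, and every line is lower at its post-induction end.

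Over all 6 animals PLIN2 was 4.80-fold lower post-induction (log2 fold change -2.26 ± 0.35 SE, edgeR quasi-likelihood test with Benjamini-Hochberg adjustment over all genes, adjusted p = 0.0246). The same test called 0.267% of the genes, 0.25% lower and 0.0163% higher, and the p of PLIN2 stood at rank 13 of 18373. Per animal, the log2 change was -2.73, -3.17 and -1.17 in VHD animals 1, 2 and 3, and -0.85, -2.12 and -3.16 in LD animals 1, 2 and 3. The post-induction level was thus between 0.111 of baseline, in VHD2, and 0.554 of baseline, in LD1. A decrease in all 6 animals was seen for 3.74% of the genes tested. In bulk liver, fewer cells of a type and less RNA per cell cannot be told apart.

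The value moved little between settings, but the call did not hold in all of them. With a term for the animal the value was -2.21 ± 0.38 (adjusted p = 0.0989), and without single libraries it ran from -1.97 to -2.49. It missed the threshold without VHD post-induction 1 (adjusted p = 0.0649) or 3 (0.0573), VHD baseline 1 (0.0572), LD post-induction 2 (0.0936) or 3 (0.0697), or LD baseline 3 (0.0772). Without the pair that component 2 set apart it was -2.32 ± 0.35 (adjusted p = 0.0377). On the side of component 1 that held 5 libraries, PLIN2 was at 15.3 to 26.7 CPM in 4 post-induction livers and at 138 CPM in 1 baseline liver, and among the other 7 at 15.2 and 35.0 CPM in 2 post-induction livers and 60.0 to 162 CPM in 5 baseline livers.

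**Figure D2:**
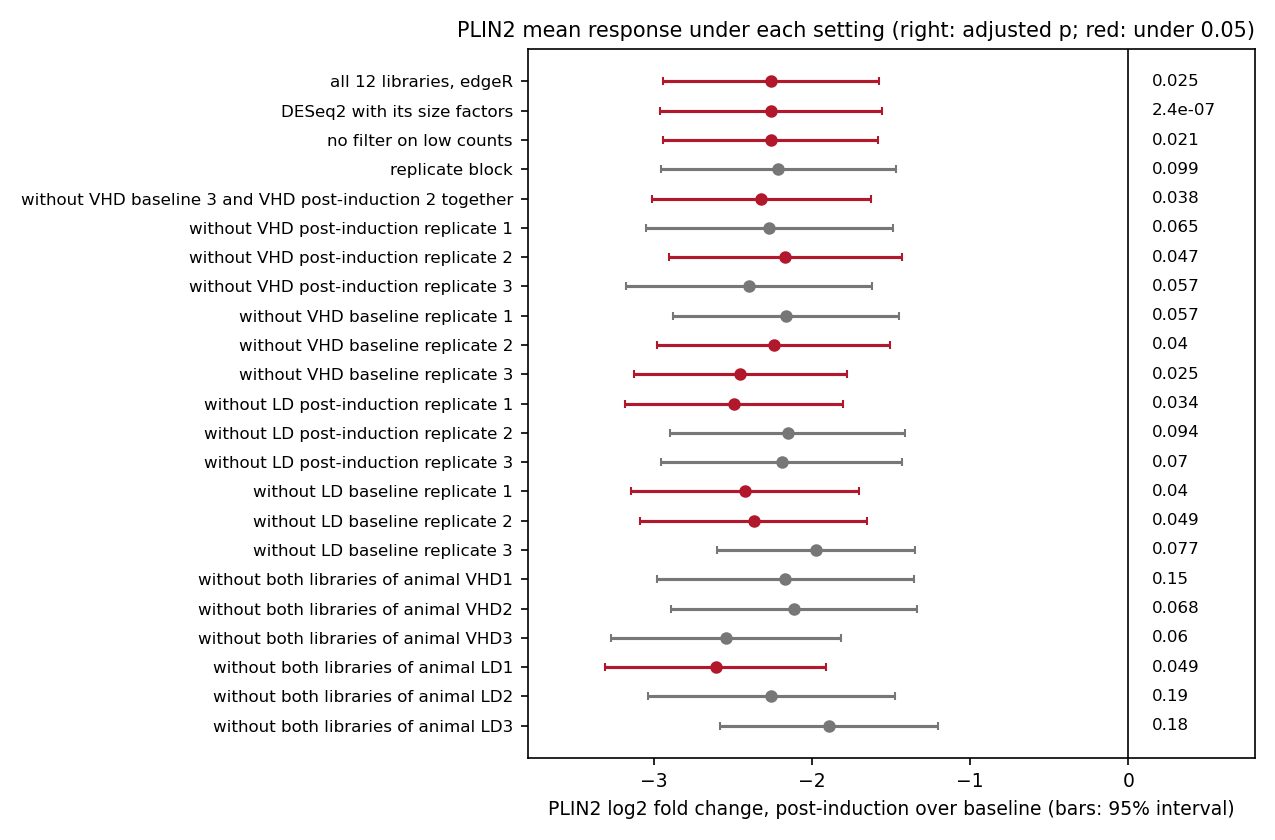
Log2 fold change of PLIN2 over all animals, post-induction over baseline, with all 12 libraries and under each alternative. Bars, labelled as 95% intervals, reach 1.96 standard errors to each side. The number at the right is the adjusted p, and red marks those under 0.05. Every estimate lies between -1.89 and -2.61, and 10 of the 22 alternatives stayed under the threshold.

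Markers of liver cells were read beside PLIN2, since macrophages and stellate cells also hold droplets. The hepatocyte markers summed to 136296 to 202313 CPM in VHD post-induction and 117145 to 227364 CPM in VHD baseline livers, and to 164359 to 237459 CPM in LD post-induction and 186229 to 222986 CPM in LD baseline livers, with overlap in both classes. The 8 macrophage markers found of 10 named summed to 270 to 747 CPM in VHD post-induction and 428 to 982 CPM in VHD baseline livers, and to 175 to 470 CPM in LD post-induction and 503 to 590 CPM in LD baseline livers. In LD this sum was therefore lower post-induction without overlap, as were 6.17% of single genes tested. It was led by CD14 (93.5 to 735 CPM), which hepatocytes also make. Of the 8 macrophage markers, 8 had negative values in the VHD response (median log2 change -0.27) and 4 in the LD response (median 0.039). The 7 stellate cell markers found of 8 summed to 52.3 to 67.9 CPM in VHD post-induction and 48.1 to 82.1 CPM in VHD baseline livers, and to 46.4 to 107 CPM in LD post-induction and 54.0 to 78.0 CPM in LD baseline livers. The 4 neutrophil markers found of 6 summed to 5.93 to 10.4 CPM in VHD post-induction and 10.6 to 27.1 CPM in VHD baseline livers, and to 4.82 to 8.05 CPM in LD post-induction and 5.19 to 9.61 CPM in LD baseline livers. In VHD the neutrophil sum was thus also lower without overlap, at 10.4 CPM or less against 10.6 CPM or more. Of single genes tested, 3.89% had all VHD post-induction libraries below all VHD baseline libraries. The neutrophil calcium-binding protein S100A8 was lower in 6 of 6 animals (mean response -1.97 ± 0.40, adjusted p = 0.0693, edgeR), as were 3.74% of the genes tested. Of the 4 neutrophil markers, 2 had negative and 2 had positive values in the mean response and within each class. The 7 erythroid markers summed to 25.3 to 83.6 CPM in VHD post-induction and 24.5 to 26.7 CPM in VHD baseline livers, and to 26.6 to 52.0 CPM in LD post-induction and 29.1 to 58.6 CPM in LD baseline livers. This sum was led by HBQ1 (9.31 to 66.3 CPM), which was lower in 3 and higher in 3 animals. Of the 7 markers, 0 had negative and 7 had positive values in the mean response (median log2 change 0.55, all genes tested 0.071). Within VHD 7 were positive, and within LD 6 were positive and 1 negative. The adipocyte hormone ADIPOQ had 0 counts in 7 libraries and at most 0.722 CPM, and the 5 adipocyte markers found of 6 summed to 6.35 to 18.2 CPM in VHD post-induction and 8.28 to 21.1 CPM in VHD baseline livers, and to 16.2 to 20.9 CPM in LD post-induction and 7.78 to 28.2 CPM in LD baseline livers. LPL (4.42 to 24.9 CPM) led the adipocyte sum, while LEP, FABP4 and PLIN1 reached at most 1.05, 1.80 and 3.26 CPM. No marker found was at 0 in every library. The part of these cell types in the fall of PLIN2 was not tested.

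The genes whose profile over the 12 libraries was most like that of PLIN2 were outside the droplet lists. Among 6089 named genes whose mean log2 CPM was 3 or more, the 5 with the highest Pearson correlation of log2 CPM were the splicing factor SRSF6 (r = 0.97), the nuclear pore protein NUP50 (0.95), the membrane linker ezrin, EZR (0.94), the polyamine enzyme ODC1 (0.94) and the nucleolar protein GNL3 (0.94). The points share libraries and animals, so these r are descriptions. The genes were chosen for likeness to PLIN2 over libraries in which PLIN2 separates the times, so that their own values below follow in part from that choice and are given with no test. SRSF6 ran from 9.75 to 24.5 CPM post-induction and from 31.1 to 61.0 CPM at baseline, and EZR from 45.3 to 65.7 CPM post-induction and from 106 to 180 CPM at baseline. Their mean responses were log2 fold changes of -1.47 for SRSF6, -1.69 for NUP50, -1.25 for EZR, -1.39 for ODC1 and -1.48 for GNL3.

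The other perilipins did not pass the test. PLIN3, a coat protein found on small droplets and in the cytosol, had 4.83, 41.7 and 36.2 CPM in VHD post-induction livers 1, 2 and 3, against 6.52, 33.3 and 35.0 CPM at VHD baseline. LD post-induction livers had 17.7, 40.2 and 35.6 CPM, against 20.6, 17.6 and 22.1 CPM at LD baseline. Both libraries of animal VHD1 were low, at 4.83 and 6.52 CPM, and the other 10 libraries held 17.6 to 41.7 CPM, a gap of 2.70-fold. The low level was thus that of 1 animal at both times. Of the genes tested, 0.147% had both VHD1 libraries at least 2-fold under the other 10. The mean response of PLIN3 was 0.39 ± 0.48 (adjusted p = 0.908), and without animal VHD1 it was 0.41 ± 0.27 (adjusted p = 0.961).

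PLIN4 and PLIN5 lie next to each other on chromosome 19, on the minus strand, 5813 bases apart, and PLIN3 lies 327205 bases further on. In Mmul_8.0.1 coordinates of the table PLIN4 (ENSMMUG00000022656) runs from 4618202 to 4636037, PLIN5 (ENSMMUG00000023699) from 4641851 to 4653153 and PLIN3 (ENSMMUG00000014816) from 4980359 to 5012752, while PLIN2 (ENSMMUG00000013997) runs from 64881015 to 64901221 on the plus strand of chromosome 15. PLIN4, which is best known from fat and muscle, was close to the detection limit, with 2 to 68 counts per library. It ran from 1.24 to 3.07 CPM in VHD post-induction and 0.518 to 2.30 CPM in VHD baseline livers, and from 0.647 to 1.63 CPM in LD post-induction and 0.346 to 1.58 CPM in LD baseline livers. Its groups overlapped, with a mean response of 0.51 ± 0.45 (adjusted p = 0.846) and higher values in 5 of 6 animals. PLIN5, which tethers droplets to mitochondria, ran from 5.91 to 10.3 CPM in VHD post-induction and 5.54 to 6.73 CPM in VHD baseline livers, and from 3.49 to 9.43 CPM in LD post-induction and 5.02 to 6.83 CPM in LD baseline livers. Its value was 0.15 ± 0.29 (adjusted p = 0.957), with an interval from -0.41 to 0.71.

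**Figure D3:**
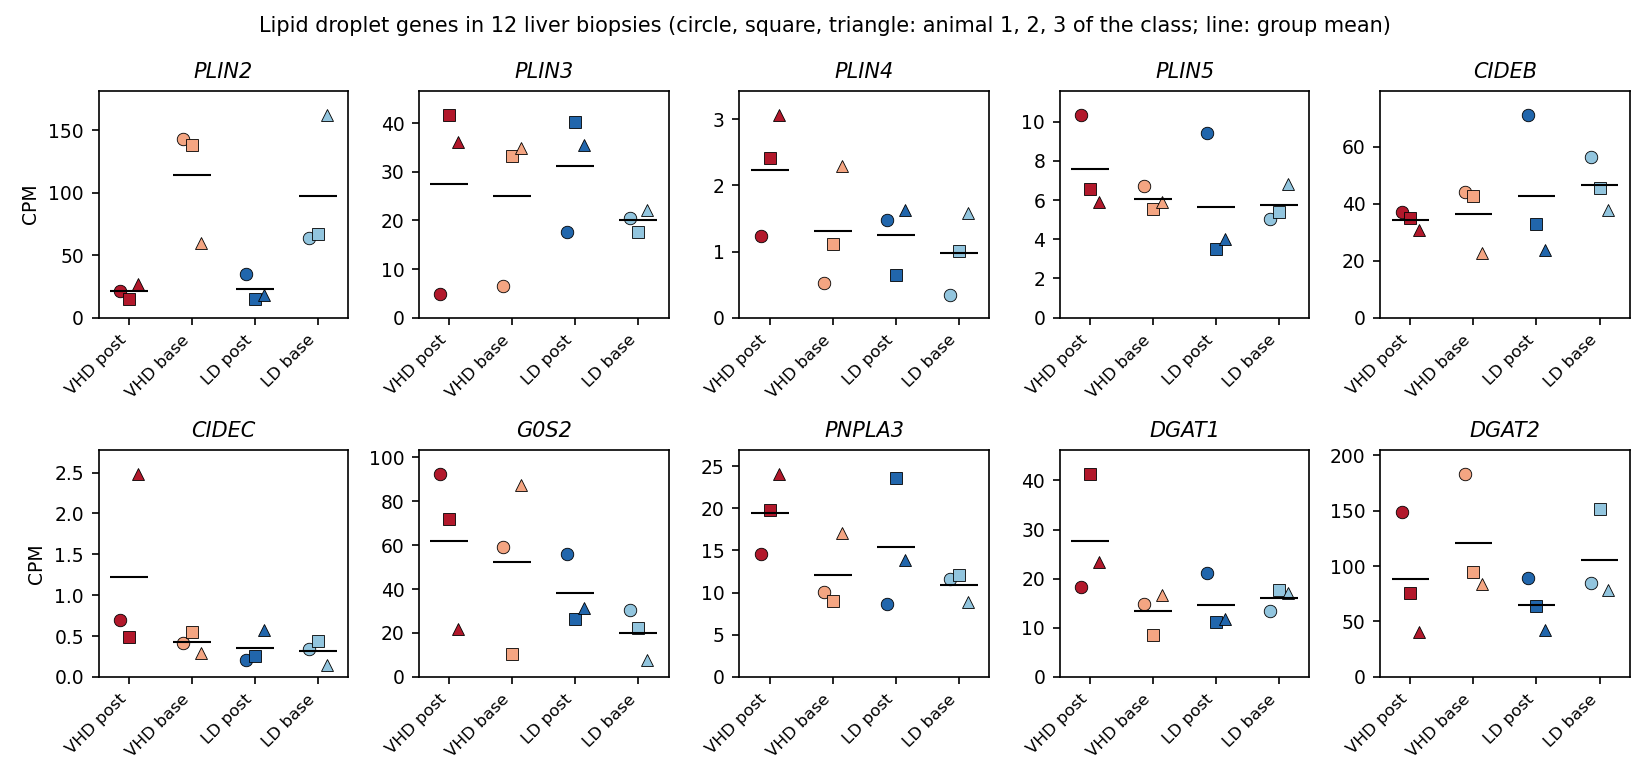
Level (CPM, linear axes from 0) of each of the 10 genes in the 12 livers, by group; circles, squares and triangles are animals 1, 2 and 3 of the class, and lines are group means. PLIN2 is the only panel in which both post-induction groups lie wholly under both baseline groups, and PLIN3 shows the low pair of animal VHD1 at 4.83 and 6.52 CPM.

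CIDEB, which in hepatocytes acts on droplets and on lipoprotein lipidation, had 30.8 to 37.3 CPM in VHD post-induction and 22.7 to 44.0 CPM in VHD baseline livers, and 23.9 to 71.3 CPM in LD post-induction and 37.9 to 56.4 CPM in LD baseline livers. It was lower in 4 of 6 animals, with a value of -0.10 ± 0.28 (adjusted p = 0.974). Its locus shares 1551 bases with LTB4R2 on the other strand, a gene with 156 counts in all, and whether counting used strand is not given in the sources used here. CIDEC, a fusion protein of fat cells that appears in fatty liver, was close to the floor. It had 2 to 9 counts in 11 libraries and 55 in VHD post-induction 3, so that 3 counts, taken as the floor, came to 0.111 to 0.519 CPM. Levels ran from 0.493 to 2.48 CPM in VHD post-induction and 0.296 to 0.554 CPM in VHD baseline livers, and from 0.212 to 0.575 CPM in LD post-induction and 0.144 to 0.443 CPM in LD baseline livers. Its value was 0.84 ± 0.56 (adjusted p = 0.764), and it fell under the filter in 8 of the 22 alternatives.

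G0S2, the inhibitor of the lipase ATGL, moved both ways. VHD post-induction livers 1, 2 and 3 had 92.3, 71.8 and 21.7 CPM, against 59.2, 10.5 and 87.5 CPM at VHD baseline, and LD post-induction livers had 56.0, 26.4 and 31.5 CPM, against 30.6, 22.1 and 7.47 CPM at LD baseline. It was higher in 5 of 6 animals, by up to 2.76 on the log2 scale in VHD2, and lower by -2.01 in VHD3. These 2 animals hold the pair of libraries set apart on component 2, both with high levels. The mean response was 0.58 ± 0.50 (adjusted p = 0.838). Under the 22 alternatives, which include leaving out this pair, it ran from 0.25 to 1.05.

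PNPLA3, a droplet lipase whose gene responds to feeding and is best known from inherited fatty liver risk, had 14.6, 19.8 and 24.0 CPM in VHD post-induction livers 1, 2 and 3, against 10.04, 8.99 and 17.1 CPM at VHD baseline. LD post-induction livers had 8.64, 23.6 and 13.9 CPM, against 11.6, 12.1 and 8.84 CPM at LD baseline. It was higher in 5 of 6 animals and lower in LD1. The value of 0.60 ± 0.28 did not pass the test (unadjusted p = 0.0511, adjusted p = 0.636, edgeR). Its profile ran against that of PLIN2 (r = -0.73 over 12 libraries), and 99.4% of the genes tested had a higher r with PLIN2.

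**Figure D4:**
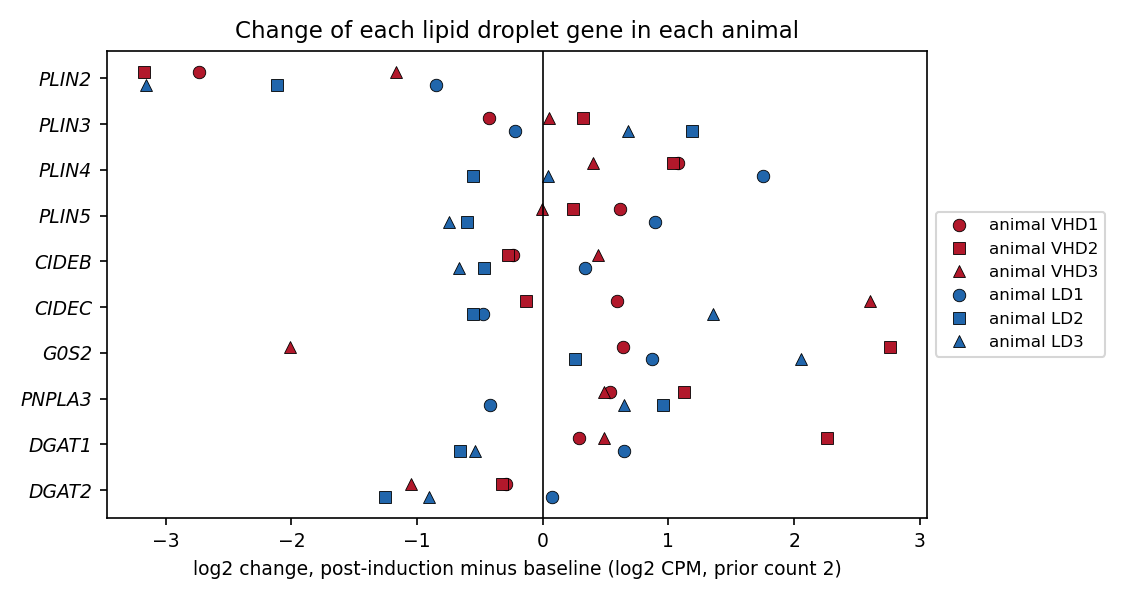
Log2 change of each gene in each animal, post-induction minus baseline, from log2 CPM (prior count 2); red marks VHD and blue LD animals. All 6 points of PLIN2 lie left of 0, from -3.17 to -0.85, and those of the other 9 genes lie on both sides.

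The 2 enzymes that finish triglyceride synthesis differed in sign without a call. DGAT1 had 18.2, 41.3 and 23.3 CPM in VHD post-induction livers, against 14.9, 8.49 and 16.6 CPM at VHD baseline, with no overlap. In LD the post-induction livers had 21.2, 11.2 and 11.8 CPM, against 13.5, 17.8 and 17.2 CPM at LD baseline, with overlap. Of the genes tested, 2.8% had all VHD post-induction libraries above all VHD baseline libraries. The mean response of DGAT1 was 0.46 ± 0.28 (adjusted p = 0.739), with higher values in 4 of 6 animals. Its response within VHD was 1.05 ± 0.39 (adjusted p = 1.00), that within LD -0.13 ± 0.39 (adjusted p = 0.984), and the difference of the 2 responses 1.19 ± 0.55 (adjusted p = 1.00). Without VHD post-induction 2, the library with 41.3 CPM and one of the pair on component 2, the response within VHD was 0.64 ± 0.38 and the difference 0.77 ± 0.52. Its locus shares 1861 bases with HSF1 on the other strand. HSF1 had 13.8, 22.9 and 14.7 CPM in VHD post-induction livers 1, 2 and 3, against 17.0, 18.2 and 35.1 CPM at VHD baseline, and a response of -0.45 ± 0.35 there (adjusted p = 1.00).

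DGAT2, which esterifies newly made fatty acids, had 149, 76.0 and 40.2 CPM in VHD post-induction livers 1, 2 and 3, against 183, 94.97 and 83.5 CPM at VHD baseline. LD post-induction livers had 89.3, 63.7 and 41.9 CPM, against 84.8, 152 and 78.7 CPM at LD baseline. It was lower in 5 of 6 animals, the exception being LD1 at 0.075, and its mean response of -0.57 ± 0.35 did not pass the test (unadjusted p = 0.125, adjusted p = 0.741, edgeR).

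DGAT2 counts were divided among 3 Ensembl transcripts, and the division set the same pair of libraries apart as component 2. Transcript ENSMMUT00000000276, on chromosome 14 from 67942023 to 67974455, took 85.0% of DGAT2 counts in VHD post-induction 2 and 72.7% in VHD baseline 3, and 17.1 to 38.0% in the other 10 libraries. ENSMMUT00000060722, which starts further into the locus at 67956815, took 7.10% and 18.4% in that pair and 35.3 to 54.8% elsewhere. The libraries of the pair carry the labels of different animals and times. Shares of overlapping transcripts are estimates of the authors' counting. PLIN2 was free of this limit, since ENSMMUT00000025856 held at least 96.7% of its counts in every library.

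**Figure D5:**
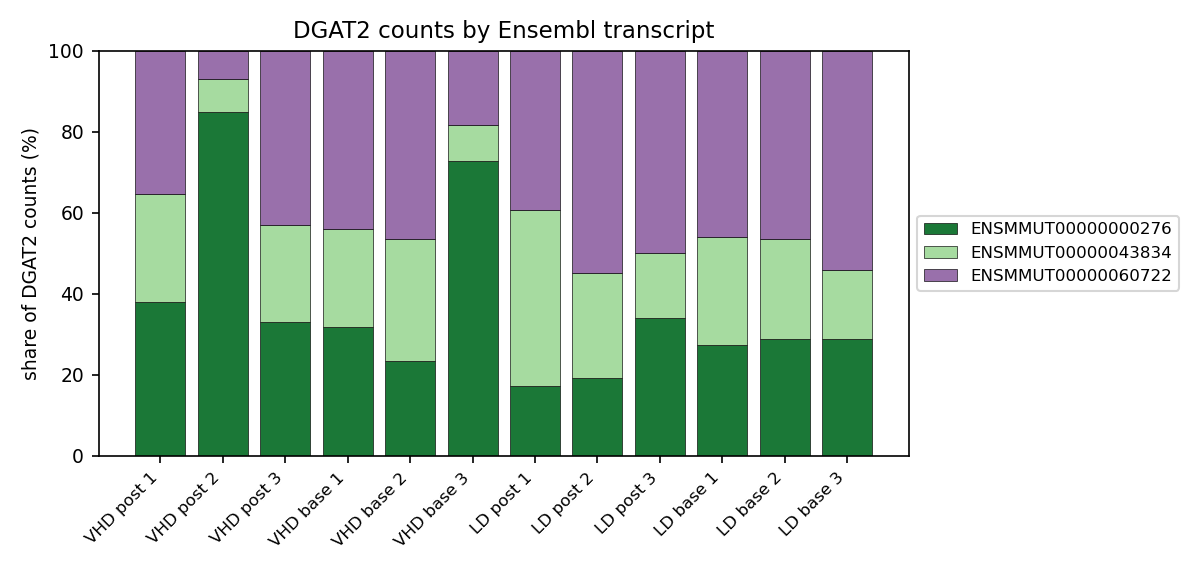
Share of DGAT2 counts (%) by Ensembl transcript in each of the 12 libraries. The dark green transcript reaches 85.0% in VHD post-induction 2 and 72.7% in VHD baseline 3, and lies between 17.1 and 38.0% in the other 10 libraries.

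Over the 10 genes, 1 fell and 0 rose in the mean response, where 7 had positive and 3 negative values and PLIN2 alone stood at an unadjusted p under 0.05, as did 7.91% of all genes. The median was 0.42, and that of all genes tested was 0.071. Within VHD and within LD edgeR called 0 of the 10, and 0 of all genes (0%). PLIN2 had values of -2.43 ± 0.50 in VHD (adjusted p = 0.295) and -2.09 ± 0.49 in LD (adjusted p = 0.562) there, with all post-induction below all baseline libraries in each class, as had 3.89% of genes in VHD and 6.17% in LD. At an unadjusted p under 0.05 stood PLIN2 and DGAT1 in VHD (2 of 10, with 3.44% of all genes) and PLIN2 in LD (1 of 10, with 5.7% of all genes). DESeq2 called PLIN2 in VHD (adjusted p = 0.001) and in LD (0.0186), and no other of the 10, where it called 0.537% of the genes with an adjusted p in VHD and 0.341% in LD. In the mean response it also called PLIN2 alone of the 10, and 2.25% of genes. The responses of PLIN2 in the classes differed by -0.33 ± 0.67 (adjusted p = 1.00, interval -1.64 to 0.97).

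None of the 10 genes passed the test between the later drinking classes before ethanol. PLIN2 stood at 60.0 to 143 CPM in VHD baseline and 63.3 to 162 CPM in LD baseline livers, with a difference of 0.22 ± 0.47 (adjusted p = 1.00, interval -0.70 to 1.14). With edgeR 0 of the 10 passed and 0 stood at an unadjusted p under 0.05, where 0.00544% of all genes passed and 1.86% stood there. DESeq2 called 0 of the 10, and 0.00546% of genes here, post-induction and for the difference of the responses alike. G0S2 had the largest value, 1.39 ± 0.72, with 10.5 to 87.5 CPM in VHD baseline and 7.47 to 30.6 CPM in LD baseline livers. Without VHD baseline 3, the library with 87.5 CPM, it was 0.79 ± 0.77, and without the pair set apart on component 2 it was 0.80 ± 0.78. Post-induction edgeR and DESeq2 again called 0, and 2 of the 10 stood at an unadjusted p under 0.05, against 2.44% of all genes, of which 0% passed. They were CIDEC (1.89 ± 0.75), which did not pass the filter without VHD post-induction 3, and DGAT1 (0.91 ± 0.39), which was 0.49 ± 0.38 without VHD post-induction 2. For the difference of the responses both tools called 0 of the 10 and 0 stood at an unadjusted p under 0.05, with 0% and 1.3% of all genes.

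Other droplet and triglyceride genes were read from lists written with earlier results of these data known, and edgeR called 0 of their genes in the mean response, either way. Of 20 further coat and surface proteins, 15 were tested, 7 with negative and 8 with positive values and a median of 0.10. The smallest p were those of the sterol enzyme NSDHL (0.76 ± 0.36, adjusted p = 0.641) and of FAF2, which brings the p97 segregase to droplets (-0.35 ± 0.19, adjusted p = 0.696). FAF2 was lower in 6 of 6 animals, as were 3.74% of the genes tested. Of 11 lipases and partners, 9 were tested, 6 with negative and 3 with positive values (median -0.22), and PNPLA2, the lipase that G0S2 inhibits, was not analysed here. ABHD5, the coactivator of that lipase, had -0.57 ± 0.23 (adjusted p = 0.543), with 5.43 ± 1.81 CPM in VHD post-induction and 8.76 ± 1.59 CPM in VHD baseline livers, and 5.42 ± 0.28 CPM in LD post-induction and 7.40 ± 1.11 CPM in LD baseline livers (SD, n = 3 each). The monoglyceride lipase MGLL had 0.52 ± 0.25 (adjusted p = 0.668).

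Of 18 enzymes of glycerolipid and sterol ester synthesis, 17 were tested, 8 with negative and 9 with positive values (median 0.22). Those of the acyltransferase AGPAT2 (0.91 ± 0.35, adjusted p = 0.501, higher in 5 of 6 animals) and the phosphatidate phosphatase LPIN2 (-0.51 ± 0.24, adjusted p = 0.641) had the smallest p. Targets of PPAR alpha, the fatty acid receptor that also drives PLIN2, gave no call: 16 of 17 were tested, 6 with negative and 10 with positive values (median 0.13). FGF21, a secreted hormone among them, was lower in 6 of 6 animals, as were 3.74% of the genes tested. Its value of -2.27 ± 0.52 missed the threshold (adjusted p = 0.125). Its post-induction levels were close to the floor of 3 counts (0.111 to 0.519 CPM). They ran from 0.451 to 1.66 CPM in VHD and 0.371 to 1.23 CPM in LD, against 2.28 to 10.9 and 0.934 to 4.74 CPM at baseline. CYP4A11, a fatty acid hydroxylase, had 0.64 ± 0.30 (adjusted p = 0.633).

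Hypoxia targets were included because PLIN2 and G0S2 respond to low oxygen in cultured cells, and 9 of 12 were tested (median -0.25, 5 negative and 4 positive). The smallest p were those of the demethylase KDM3A (-1.26 ± 0.35, adjusted p = 0.239) and of VEGFA, the growth factor of vessels (-0.75 ± 0.21, adjusted p = 0.261), each lower in 6 of 6 animals. The prolyl hydroxylase P4HA1 had a larger value with a wider error (-1.45 ± 0.59, adjusted p = 0.543). It and the glucose transporter SLC2A1 (-0.45 ± 0.24, adjusted p = 0.698) were also lower in 6 of 6 animals, as were 3.74% of the genes tested. These named genes all come from the 5 with negative values. Of the same list, ADM and NDRG1 had higher group means post-induction in both classes. ADM had 10.6 CPM in VHD post-induction and 9.71 CPM in VHD baseline livers, and 9.95 and 6.77 CPM in LD. NDRG1 had 12.4 and 9.84 CPM in VHD, and 14.4 and 12.4 CPM in LD. They were higher in 4 and 3 of 6 animals. VEGFA had 45.8, 37.9 and 56.2 CPM in VHD post-induction livers, against 87.2, 80.2 and 91.5 CPM at VHD baseline. LD post-induction livers had 33.6, 62.5 and 50.03 CPM, against 67.1, 87.0 and 67.8 CPM at LD baseline. All 6 post-induction values of VEGFA lay below all 6 baseline values, as for PLIN2 and 0.849% of the genes tested. VEGFA did not pass the test.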

How the data were processed

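Liver RNA was sequenced as single reads of 76 bases from Combo-Seq libraries, per the labels' protocols. The authors deposited expected counts per Ensembl transcript. The submitters' processing notes name the build Mmul_8.0.1 and the tools BWA, Bowtie and Partek, with roles, versions and annotation not given in the sources used here. Counts were summed per Ensembl gene identifier and rounded, and symbols matched 15471 of 23993 identifiers. Genes with low counts were dropped by filterByExpr. Tests used edgeR 4.0.16 in R 4.3.3: TMM factors, a robust quasi-likelihood fit of 4 group means over 12 libraries, and Benjamini-Hochberg adjustment over all genes tested with a threshold of 0.05. A standard error is the log2 fold change over the square root of F, and intervals are 1.96 standard errors to each side. Such intervals are approximate and can exclude a null change where the test gives an unadjusted p above 0.05, as for PNPLA3 in the mean response. CPM are on TMM-scaled totals. The genes, lists and alternatives were chosen with earlier results of these data known. Named were all 10 genes, the 2 context genes per list with the smallest p where none passed, and the 5 genes most like PLIN2. Overlapping genes, markers, P4HA1, SLC2A1, ADM and NDRG1 stand outside this rule. The DGAT2 transcripts and the low PLIN3 of VHD1 were singled out after their values were seen. Libraries of 1 animal share its number in the titles. Their deviations from group means correlated at -0.35 to 0.41 across genes, and the replicate block, an alternative, was a term for each of the 6 animals in comparisons of times and of responses, and a term for the number in the titles in VHD against LD at 1 time, where classes share no animal. Labels give no batch. The edgeR steps were tested on simulated data in which libraries were independent, with no animal effect. Those data cannot show how a call depends on the term for the animal. Depth limits low genes, with 3 counts at 0.111 to 0.519 CPM, by counting error only.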

Additional observations from a re-analysis of the deposited data

How the results depend on the processing

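Alternatives were DESeq2 1.42.0, no filter, a replicate block, leaving out VHD baseline 3 and VHD post-induction 2, leaving out each library and, chosen after seeing the data, leaving out each animal. The number of the 10 genes called in the mean response was 1. It stayed at 1 with DESeq2, without a filter and without the pair of libraries, became 0 with the replicate block, and was 0 to 1 without single libraries, for which the cause was not tested. It was 0 without animal VHD1, VHD2, VHD3, LD2 or LD3 and 1 without LD1, where the fit has fewer samples. DESeq2 raised the number to 1 within VHD and to 1 within LD, with PLIN2 at -2.43 and -2.09. The replicate block changed no other call. The number of all genes called in the mean response was 49, with DESeq2 284 and with the replicate block 4.

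Of 749 values of single genes under alternatives, 49 changed sign, and no called value did. When that pair of libraries was left out, the VHD against LD difference at baseline turned for PLIN3 (-0.0073), PLIN4 (-0.31) and PNPLA3 (-0.19), that post-induction for PLIN2 (0.078), and the difference of responses for CIDEB (-0.23). With the replicate block PLIN3 turned within VHD (-0.0016, a term per animal) and at baseline (-0.12, a term for the title number, which joins different animals), and without animal LD1 the mean response of PLIN5 did (-0.20).

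Leaving out single libraries gave these ranges where a sign turned. The mean response ran from -0.40 to 0.038 for CIDEB and -0.15 to 0.28 for PLIN5. Within VHD it ran from -0.35 to 0.073 for CIDEB, -0.31 to 0.78 for G0S2 and -0.30 to 0.64 for PLIN3. Within LD it ran from -0.72 to 0.16 for CIDEB, -0.39 to 0.28 for CIDEC, -0.50 to 0.032 for DGAT1, -0.12 to 0.76 for PLIN4 and -0.62 to 0.24 for PLIN5. VHD against LD at baseline ran from -0.24 to 0.56 for DGAT2, -0.063 to 0.81 for PLIN2, -0.099 to 0.76 for PLIN3, -0.38 to 0.87 for PLIN4, -0.062 to 0.22 for PLIN5 and -0.24 to 0.32 for PNPLA3. Post-induction it ran from -0.60 to 0.27 for CIDEB, -0.16 to 0.78 for DGAT2, -0.34 to 0.34 for PLIN2 and -0.59 to 0.32 for PLIN3. The difference of responses ran from -0.25 to 0.63 for CIDEB, -0.36 to 0.68 for DGAT2, -0.92 to 0.12 for PLIN2, -0.93 to 0.0092 for PLIN3, -0.0062 to 1.24 for PLIN4 and -0.10 to 0.63 for PNPLA3.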

Other observations

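Over the 12 libraries, which share animals, the log2 CPM of DGAT2 had r = 0.48 with PLIN2, CIDEB 0.31 and PLIN5 0.14, while PNPLA3 (-0.73), G0S2 (-0.46), DGAT1 (-0.36), CIDEC (-0.31), PLIN4 (-0.31) and PLIN3 (-0.26) were negative. PLIN3 and DGAT2 had r = -0.78 with each other. These are descriptions of 12 libraries from 6 animals.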
